A study of Homo sapiens with 8 samples.

Results

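The miR-29 family, a group of microRNAs (miRNAs) encoded by a cluster on chromosome 7 and a cluster on chromosome 1, was followed across 4 human cancer cell lines by small RNA-seq. Its members were chosen by name as hsa-miR-29a-3p, hsa-miR-29a-5p, hsa-miR-29b-3p, hsa-miR-29b-1-5p, hsa-miR-29b-2-5p, hsa-miR-29c-3p and hsa-miR-29c-5p. These are 7 of the 2588 mature miRNA names in the data, held in 8 of 2813 entries, since miR-29b-3p has an entry for each of its genomic copies and these were summed. The lines were ES-2 (ovarian cancer), MV-3 (melanoma), Huh-7 (hepatocellular carcinoma) and A-549 (lung adenocarcinoma). All were parental, untreated cells grown in serum-containing medium and taken 48 h after seeding, with 2 biological replicate libraries per line and 8 in all. Each tumor type was thus represented by 1 line, so that differences between lines and differences between tumor types cannot be told apart. RNA was extracted from bulk cultures, in which fewer expressing cells and less RNA per cell cannot be told apart either.

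A mature miRNA is cut from either arm of a hairpin precursor (5p or 3p) and guides Argonaute proteins to mRNAs, mainly by pairing of its seed, bases 2 to 8. The 3p arms of miR-29 are the arms usually loaded, and they are widely known as repressors of collagen and other extracellular matrix mRNAs, of DNA methyltransferases and of the survival factor MCL1. Loss of miR-29 has been described in fibrosis and in several tumor types, and MYC is among the factors known to repress both clusters.

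Members are shown first by sequence, because their relation decides which reads can be told apart. The 3 mature 3p arms of the family, written 5′ to 3′ from RefSeq on GRCh38.p14 with the seed in capitals, have a single seed in common:
hsa-miR-29a-3p: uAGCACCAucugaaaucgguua
hsa-miR-29b-3p: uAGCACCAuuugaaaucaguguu
hsa-miR-29c-3p: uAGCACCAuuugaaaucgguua
The 4 arms of the 5p side, again with bases 2 to 8 in capitals, have 4 different seeds:
hsa-miR-29a-5p: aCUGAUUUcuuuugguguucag
hsa-miR-29b-1-5p: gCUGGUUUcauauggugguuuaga
hsa-miR-29b-2-5p: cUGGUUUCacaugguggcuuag
hsa-miR-29c-5p: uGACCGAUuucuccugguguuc
The seed AGCACCA was found in no other human mature miRNA of the RefSeq table, and each 5p seed was found in 1 name only. Positions are counted from 1 at the 5′ end of the first-named miRNA. Between miR-29a-3p and miR-29c-3p the only substitution was C10U, so a single misread base turns one into the other. From miR-29c-3p to miR-29b-3p the substitutions were G18A, U21G and A22U, and miR-29b-3p ends in AGUGUU, a stretch described as a nuclear localization element. The 5p arms of the copies of miR-29b were alike in sequence but shifted by 1 base, and the overlapping part differed by U11C and U19C, counted on miR-29b-1-5p.

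The chromosome 7 cluster lies on the minus strand of GRCh38.p14, with the MIR29B1 hairpin at chr7:130877459-130877539 upstream of the MIR29A hairpin at chr7:130876747-130876810. The hairpins are 648 bases apart. In the GENCODE annotation both overlapped an exon of at least 1 transcript of the long noncoding RNA LINC-PINT on the same strand, and both lay outside the exons of LINC00513 on the opposite strand. The chromosome 1 cluster is also on the minus strand, with MIR29B2 at chr1:207802443-207802523 and MIR29C at chr1:207801852-207801939, 503 bases apart. Both hairpins overlapped an exon of the long noncoding RNA MIR29B2CHG. The mature miR-29b-3p sequence is identical in MIR29B1 and MIR29B2, so its 2182 reads, entered as 1125 at chromosome 7 and 1057 at chromosome 1, cannot be assigned to a locus. Of the remaining reads, 165937 carried the name miR-29a-3p, 5536 miR-29b-1-5p, 355 miR-29c-3p, 237 miR-29a-5p, 47 miR-29c-5p and 42 miR-29b-2-5p, summed over the 8 libraries. The map of both clusters draws the hairpins to scale with these totals beside them.

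**Figure D1:**
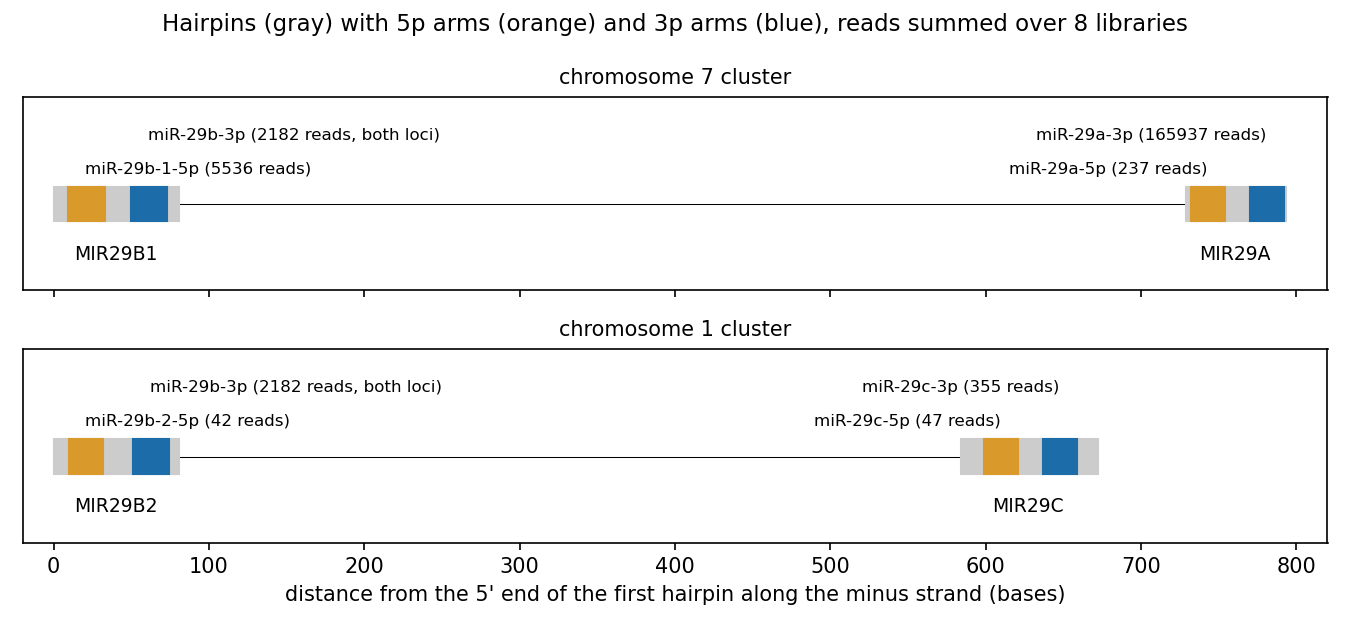
Map of the 4 miR-29 hairpins, drawn along the minus strand as distance in bases from the 5′ end of the upstream hairpin, with hairpins in gray, 5p arms in orange and 3p arms in blue. Numbers give reads summed over 8 libraries; the 2182 reads of miR-29b-3p are shown at both loci because the sequence is identical, and miR-29a-3p holds 165937 reads against 355 for miR-29c-3p.

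The libraries held 1173902 to 2670030 reads on mature miRNAs. Levels are given as normalized CPM, counts per 1000000 reads after scaling by the trimmed mean of M values (TMM), which corrects for differences in library composition, or as library CPM, counts per 1000000 miRNA reads without this scaling. TMM factors ranged from 0.593 in A-549 to 1.70 in Huh-7, so the scaling matters when these lines are compared. The hepatocyte miRNA miR-122-5p reached 139819 ± 10046 library CPM (SD, n = 2) in Huh-7 and at most 38.1 in any other line mean, whereas the melanocyte miRNA miR-211-5p had 0 reads in both MV-3 libraries, so the melanocytic origin was not visible in that marker. The epithelial miR-200c-3p lay between 21.8 and 200.3 library CPM in the line means and miR-141-3p at or below 4.50, including in A-549. Of the blood cell miRNAs, miR-142-3p was at 306 ± 28.0 library CPM (SD, n = 2) in ES-2 and at 0 in the other lines, while miR-223-3p and miR-451a did not exceed 1.16. The part of other cells in the ES-2 values was not tested.

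miR-29a-3p, the main 3p arm of the chromosome 7 cluster, was the family's most abundant member in all 8 libraries. Replicates 1 and 2 of ES-2 held 29599 and 28794 normalized CPM, those of MV-3 12974 and 12776, those of A-549 7101 and 6343, and those of Huh-7 1182 and 1002. The libraries of the 4 lines did not overlap, and Huh-7 was lowest. In single pairs of lines, 63.1% to 82.2% of the 528 miRNAs tested did not overlap. The share with all 4 lines separate was not counted, here or for the members below. Among all miRNA names miR-29a-3p ranked 8 and 9 in the ES-2 libraries, 13 in both libraries of MV-3, 22 and 26 in those of A-549, and 52 and 55 in those of Huh-7. Its level in Huh-7 was lower than in ES-2 by a log2 fold change of -4.74 (SE 0.093, adjusted p = 9.41e-08, limma).

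The passenger arm miR-29a-5p followed the order ES-2, MV-3, A-549, Huh-7 at a much lower level. ES-2 libraries had 37.5 and 36.5 normalized CPM, MV-3 20.7 and 25.8, A-549 12.9 and 8.18, and Huh-7 1.13 and 0.683. The groups did not overlap, but the Huh-7 values rest on 4 and 2 reads. Its difference between Huh-7 and ES-2 was -4.33 on the log2 scale (SE 0.38, adjusted p = 0.000101, limma). With so few reads the added 1 normalized CPM shrinks this value, which was -5.24 with 0.1 added, -5.23 with edgeR and -5.47 with DESeq2. Moreover, miR-29a-5p passed the filter on low counts through the lines where it was higher. Its calls against Huh-7 were thus in part fixed by that filter.

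miR-29b-1-5p, the 5p arm that is specific to the chromosome 7 copy of miR-29b, was the second most abundant member by reads. Both ES-2 libraries were high, at 986 and 1180 normalized CPM, followed by 312 and 359 for MV-3, 156 and 200.4 for A-549, and 27.0 and 50.2 for Huh-7. No line overlapped another, and Huh-7 was again lowest. Huh-7 differed from ES-2 by -4.83 on the log2 scale (SE 0.30, adjusted p = 1.66e-05, limma).

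miR-29b-3p, which both clusters can yield, was measured at 441 and 364 normalized CPM in the ES-2 libraries. Those of MV-3 had 203 and 177, those of A-549 69.6 and 59.7, and those of Huh-7 4.79 and 13.0. The lines were separate here as well, although the Huh-7 libraries held only 17 and 38 reads and differed from each other by a larger factor than the replicates of any other line. The difference of miR-29b-3p between Huh-7 and ES-2 was -5.48 on the log2 scale (SE 0.40, adjusted p = 4.13e-05, limma). It was -4.84 without replicate 1 of Huh-7 and -6.12 without replicate 2. Like miR-29a-5p, miR-29b-3p passed the filter on low counts through the lines where it was higher. Its calls against Huh-7 were thus in part fixed by that filter.

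miR-29c-3p, the 3p arm specific to the chromosome 1 cluster, behaved differently, and the part of misread miR-29a-3p in its reads was not tested. ES-2 libraries were at 30.5 and 35.4 normalized CPM, MV-3 libraries at 24.4 and 35.7, A-549 libraries at 31.4 and 33.5, and Huh-7 libraries at 7.88 and 8.20. Both Huh-7 libraries lay below all others, while the libraries of ES-2, MV-3 and A-549 overlapped. The difference between Huh-7 and ES-2 was -1.91 on the log2 scale (SE 0.30, adjusted p = 0.00171, limma). This call was lost when either Huh-7 library or replicate 2 of ES-2 was left out, with adjusted p-values of at least 0.0120. Its line means spanned 1.91 on the log2 scale, against 4.74 for miR-29a-3p and a median of 3.09 over the 528 miRNAs tested.

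The 5p arms of chromosome 1 were near the limit of detection, set at 3 reads in a library or 0.845 to 2.45 normalized CPM. For miR-29b-2-5p, the ES-2 libraries held 8 and 11 reads, the MV-3 libraries 4 and 5, the A-549 libraries 12 and 0, and the Huh-7 libraries 2 and 0. For miR-29c-5p these were 3 and 8 reads with ES-2, 3 and 7 with MV-3, 22 and 0 with A-549, and 0 and 4 with Huh-7. In A-549 both were thus seen in replicate 1 and not in replicate 2, and 6 of 374 names with at least 12 reads in that replicate 1 had 0 reads in replicate 2. Such floors cover counting error only, since reads and not molecules were counted. These 2 members did not pass the filter on low counts and were not tested.

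**Figure D2:**
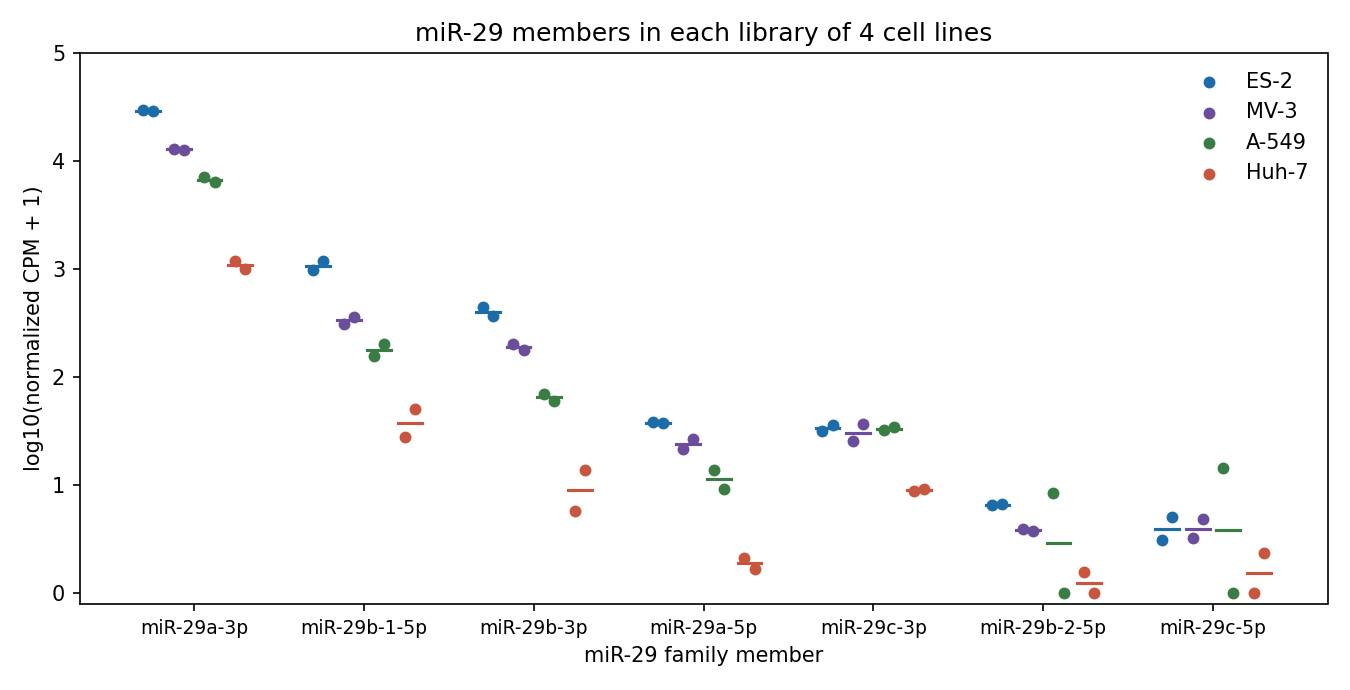
Level of each miR-29 member as log10(normalized CPM + 1) on the vertical axis, with a point per library, a bar at the mean of the 2 libraries and colors for the 4 cell lines. Apart from the chromosome 1 arms at the right, values fall in the order ES-2, MV-3, A-549, Huh-7, from 29599 normalized CPM for miR-29a-3p in an ES-2 library to 0.683 for miR-29a-5p in a Huh-7 library.

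The order ES-2 above MV-3 above A-549 above Huh-7 in line means was shared by 4 members, miR-29a-3p, miR-29a-5p, miR-29b-1-5p and miR-29b-3p. By comparison, 29 of the 528 miRNAs tested (5.49%) had this order. In normalized CPM the order of miR-29c-3p was ES-2, A-549, MV-3, Huh-7, in which only the step to Huh-7 exceeded the spread of the libraries. In library CPM its order was MV-3, ES-2, A-549, Huh-7, and the A-549 libraries lay apart from those of every other line. Arms of a hairpin and hairpins of a cluster come from the same transcript, and these members are therefore not independent.

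All 6 pairs of lines were compared with limma over 528 miRNAs, with a call at an adjusted p below 0.01. The pairs share libraries, and their results are not independent of each other. Libraries of the lines compared did not overlap in 74.8% of all miRNAs tested for Huh-7 and ES-2, 63.1% for MV-3 and ES-2, 72.2% for A-549 and ES-2, 79.0% for Huh-7 and MV-3, 72.3% for A-549 and MV-3, and 82.2% for A-549 and Huh-7. The separation of single members between lines is to be read against these shares. Of the 7 members, the 5 that passed the filter are counted. Among them, miR-29a-5p had 4 and 2 reads in Huh-7, and miR-29b-3p had 17 and 38. Both passed through the lines where they were higher, since their Huh-7 libraries alone would not have met the filter. Their calls against Huh-7 were thus in part fixed by the filter. Huh-7 was lower than ES-2 in 5 members, where 21.6% of all miRNAs tested were called lower, and lower than MV-3 in 5, where the share was 20.1%. The median log2 fold change of the 5 members was -4.74 in the first pair and -3.56 in the second, and that of all miRNAs tested was 0.34 and 0.19. A-549 was higher than Huh-7 in 5 members, against 28.6% of all miRNAs, with medians of 2.58 and -0.09. This last count was 4 without replicate 1 of Huh-7 or of A-549, 3 without Huh-7 replicate 2 and 2 without A-549 replicate 2. Huh-7 was lower than ES-2 in 4 members without ES-2 replicate 2 or either Huh-7 library, and lower than MV-3 in 4 without MV-3 replicate 2 or either Huh-7 library, the call of miR-29c-3p being the one lost.

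A-549 was lower than ES-2 in 4 members, against 17.6% of all miRNAs, with log2 fold changes between -2.62 for miR-29b-3p and -1.75 for miR-29a-5p (adjusted p = 0.00177 and 0.00885). MV-3 was lower than ES-2 in 2 members, miR-29a-3p at -1.18 (adjusted p = 0.000136) and miR-29b-1-5p at -1.68 (adjusted p = 0.00491), against 14.2% of all miRNAs. The values of miR-29b-3p (-1.08, 95% interval -2.05 to -0.10, adjusted p = 0.0865) and miR-29a-5p (-0.65, interval -1.59 to 0.28, adjusted p = 0.259) did not pass in this pair. Between A-549 and MV-3, miR-29a-3p was called lower in A-549 at -0.94 (adjusted p = 0.000243), against 15.5% of all miRNAs. There miR-29b-3p (-1.54, adjusted p = 0.0184), miR-29b-1-5p (-0.92, adjusted p = 0.0404) and miR-29a-5p (-1.09, adjusted p = 0.0529) missed the threshold. The number of members called in these pairs also depended on single libraries, and with each library left out in turn was 1 to 3 when MV-3 was set against ES-2, 2 to 3 for A-549 and ES-2, and 1 to 2 for A-549 and MV-3. The call of miR-29a-5p between A-549 and ES-2 was lost in 13 of 19 alternative fits, with adjusted p-values of 0.0108 to 0.0385, and that of miR-29b-1-5p between MV-3 and ES-2 in 8 of 19, with 0.0104 to 0.0416. In the joint test of the 4 lines 5 members were called, as were 68.2% of all miRNAs tested. The joint call of miR-29c-3p was lost with library size only (adjusted p = 0.0236, limma) and without replicate 1 or 2 of Huh-7 (adjusted p = 0.0258 and 0.0237), which left 4 members.

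For miR-29c-3p, no difference was called among ES-2, MV-3 and A-549. The 95% intervals of its log2 fold changes ran from -0.89 to 0.59 when MV-3 was set against ES-2, from -0.76 to 0.72 for A-549 and ES-2, and from -0.61 to 0.87 for A-549 and MV-3. Intervals of this width still allow changes of up to 0.89 on the log2 scale. The plot of the pairwise differences shows the 3 intervals with TMM scaling crossing 0.

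**Figure D3:**
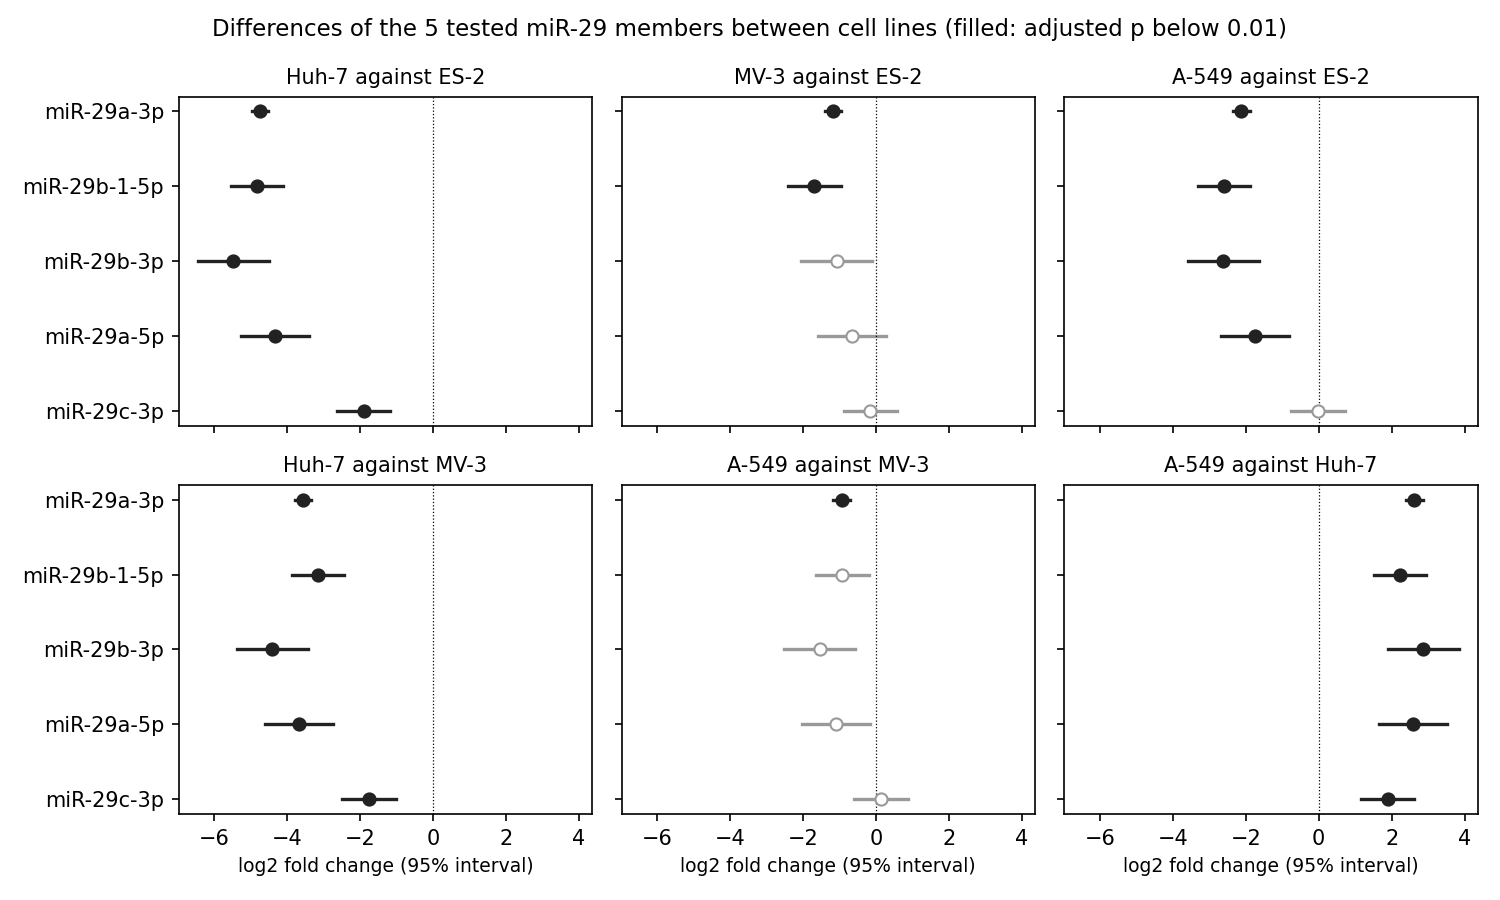
Log2 fold change of the 5 tested miR-29 members for each of the 6 pairs of lines, first line minus second, with points for the estimate and lines for the 95% interval; filled points are called at an adjusted p below 0.01. The 3 panels that include Huh-7 have filled points for all 5 members, from -5.48 to 2.86, whereas miR-29c-3p is open in the 3 panels without Huh-7. Of the members, miR-29a-5p and miR-29b-3p passed the filter on low counts through lines other than Huh-7.

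Because of the high TMM factors of Huh-7 and the low ones of A-549, the same comparison was made with library size as the only scaling. Under it the median over all miRNAs tested moved from 0.34 to 1.07 on the log2 scale for Huh-7 against ES-2 and from -0.09 to -1.38 for A-549 against Huh-7. In the latter pair only 1 of the 5 members, miR-29a-3p, was then called. The difference of miR-29c-3p between A-549 and Huh-7 fell from 1.89 (adjusted p = 0.00169, limma) to 0.51 (adjusted p = 0.175), and its difference between Huh-7 and ES-2 from -1.91 to -1.02 (adjusted p = 0.0233). For miR-29a-3p this difference was -3.78 in place of -4.74. The lower miR-29a-3p in Huh-7 than in each other line was called under either scaling.

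Summed over the family, miR-29 took 2.64% ± 0.0799 of the ES-2 reads, 1.57% ± 0.0111 of the MV-3 reads, 0.422% ± 0.0392 of the A-549 reads and 0.192% ± 0.0118 of the Huh-7 reads (SD, n = 2). These shares correspond to 26374 ± 799, 15660 ± 111, 4220 ± 392 and 1915 ± 118 library CPM. Names specific to chromosome 7 gave 98.3 to 98.6% of the family's reads in the line means. Names specific to chromosome 1 gave 0.136% ± 0.0183 for ES-2, 0.267% ± 0.0687 for MV-3, 0.606% ± 0.144 for A-549 and 0.790% ± 0.141 for Huh-7. The chromosome 1 share was thus smallest where the family was most abundant. It is divided by a total made up almost wholly of chromosome 7 reads, and so falls as those reads rise.

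Ratios within a library do not depend on scaling. For every read of miR-29c-3p the ES-2 libraries held 958 and 807 reads of miR-29a-3p, the MV-3 libraries 523 and 355, the A-549 libraries 224 and 187, and the Huh-7 libraries 147 and 119.7, with 0.5 reads added to each count. The lines did not overlap, and the ratio of ES-2 exceeded that of Huh-7 by 6.62-fold. In an exact permutation test of the F ratio over 105 partitions of the 8 libraries, one-sided, p was 0.00952, the smallest this design allows, and 0.0381 after adjustment over the 4 ratios tested. With permutation of the lines within replicate numbers, the adjusted p was 0.167, in a design of 24 orders. There a ratio can pass 0.05 after adjustment only if all 4 ratios reach the smallest p. Reads of miR-29c-3p came to 0.103% to 0.818% of those of miR-29a-3p, from which they differ by 1 base, and the part of misread bases in them was not tested.

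The ratio of miR-29a-3p to its passenger arm was 783 ± 1.26 for ES-2, 553 ± 88.3 for MV-3, 638 ± 143 for A-549 and 1053 ± 170.1 for Huh-7 (SD, n = 2). It did not pass after adjustment (exact permutation p = 0.0381, adjusted p = 0.0762), and the Huh-7 value rests on 4 and 2 reads of miR-29a-5p. No difference was detected between lines for miR-29b-1-5p to miR-29b-2-5p (exact permutation p = 0.981) or miR-29c-3p to miR-29c-5p (exact permutation p = 1), where counts of 0 in single libraries left the spread wider than the range of the lines.

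With both copies of miR-29b pooled, the arms stood in the opposite order to those of miR-29a, with more 5p than 3p reads. Reads of both 5p arms per read of miR-29b-3p numbered 2.25 and 3.26 with ES-2, 1.55 and 2.04 with MV-3, 2.35 and 3.36 with A-549, and 5.76 and 3.87 with Huh-7. The 5p reads were more numerous in 8 of 8 libraries, nearly all of them miR-29b-1-5p. In MIR29A, by contrast, 99.9% of the reads of both arms were 3p, a share above that of 92.6% of the 256 hairpins with at least 100 reads, and in MIR29C the 3p share was 88.3%. With all miR-29b-3p reads counted at each copy, the 3p share was 28.3% for MIR29B1, above that of 47.7% of these hairpins, and 98.1% for MIR29B2. The order of the arms at MIR29B2 alone is therefore not known. Ligation and mapping can favor 1 arm, and their part in these ratios was not tested.

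**Figure D4:**
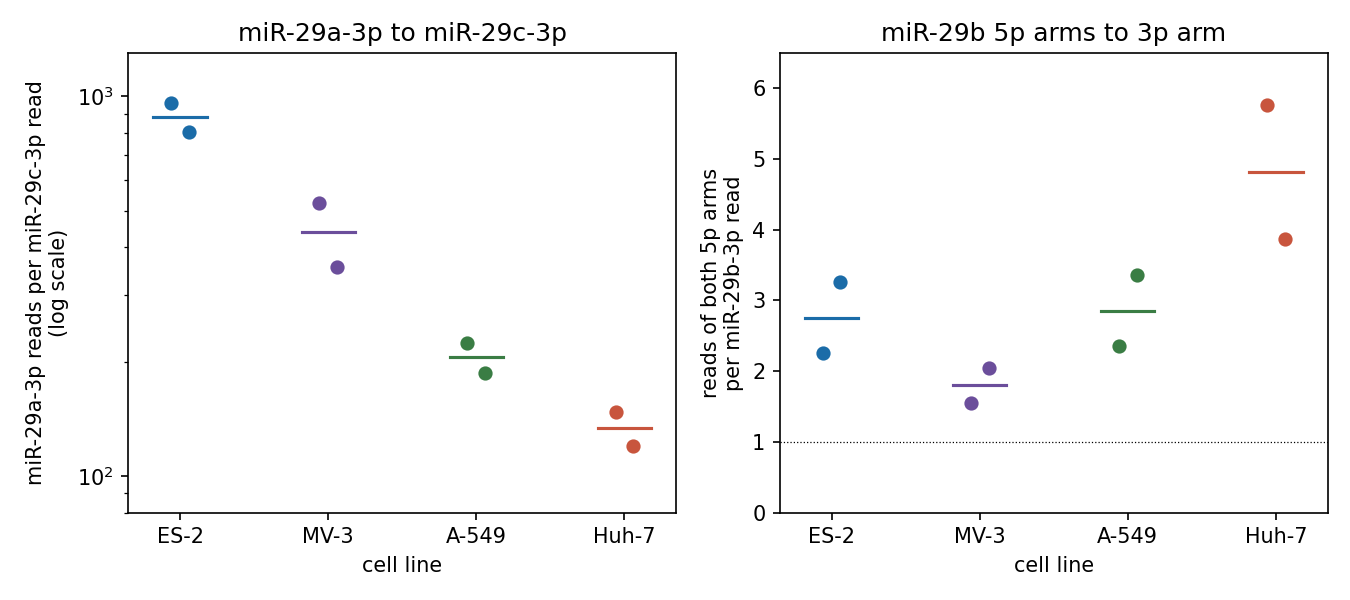
Reads of miR-29a-3p per read of miR-29c-3p on a log axis (left) and reads of both miR-29b 5p arms per read of miR-29b-3p on a linear axis (right), with a point per library and a bar at the mean. The left ratio falls from 958 in an ES-2 library to 119.7 in a Huh-7 library, and all 8 points at the right lie above the dotted line at 1.

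Other miRNAs with a pattern like that of the family were looked for among 178 miRNAs with a mean of at least 100 normalized CPM, by Pearson's r of log2(normalized CPM + 1) over the 8 libraries. These r values describe 4 lines with 2 libraries each, which share library and scaling, and carry no test. Closest to miR-29a-3p were miR-221-3p (r = 0.995), miR-222-3p (r = 0.994) and miR-221-5p (r = 0.992), which are encoded together on the X chromosome. The same 3 names were closest to miR-29b-3p, with r between 0.982 and 0.984. For miR-29c-3p they were let-7i-5p (r = 0.984), let-7b-5p (r = 0.983) and miR-27a-5p (r = 0.983). Such an r does not measure the size of a change. From ES-2 to Huh-7 the mean normalized CPM of miR-29c-3p went from 33.0 to 8.04. That of let-7i-5p went from 31088 to 14.6, that of let-7b-5p from 10076 to 31.0 and that of miR-27a-5p from 281 to 14.4. Within the family, r with miR-29a-3p was 0.991 for miR-29a-5p, 0.979 for miR-29b-3p, 0.975 for miR-29b-1-5p and 0.889 for miR-29c-3p.

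**Figure D5:**
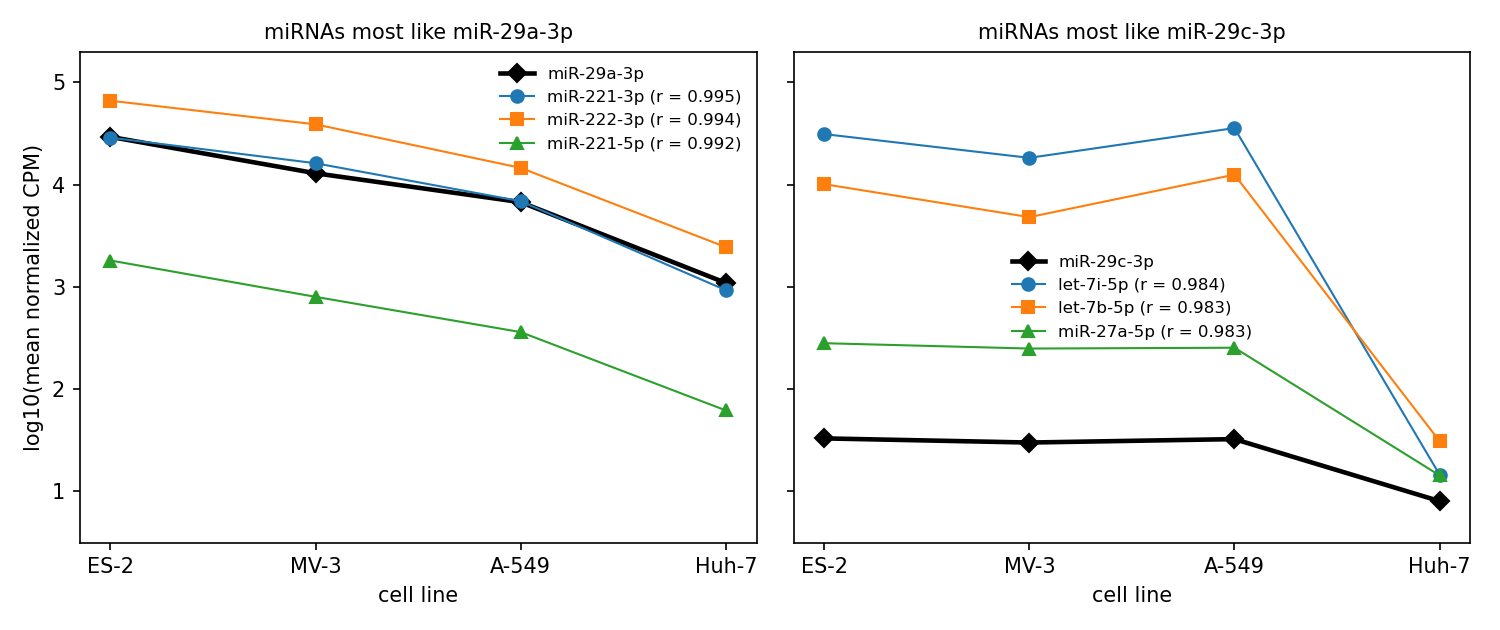
Mean normalized CPM on a log10 scale in each of the 4 lines for miR-29a-3p (left) and miR-29c-3p (right), drawn in black with diamonds, and for the 3 miRNAs with the highest r to each. At the left all 4 lines descend from ES-2 to Huh-7, with r from 0.992 to 0.995; at the right the drop lies between A-549 and Huh-7, with r from 0.983 to 0.984.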

How the data were processed

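Small RNA was sequenced from total RNA of the 4 lines, with libraries made with a NEXTflex kit. Per the labels and the study's methods, the authors trimmed reads with cutadapt 1.14, aligned them to hg38 with Bowtie2 2.3.2 and counted miRBase 21 mature miRNAs with featureCounts 1.5.3. How multiply aligned reads and strand were handled was not given in the sources used here. The authors deposited a normalized signal, TMM-scaled with edgeR 3.18.1, and not counts. Every value was a whole multiple of a constant of its library (100% of values at a tolerance of 0.001), from which reads were recovered. Entries of a name were summed.

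Differences were tested with limma 3.58.1 on log2(normalized CPM + 1), which understates changes of miRNAs with few reads. The fit held 1 term per line, all 8 libraries and a mean-dependent prior, and 528 miRNAs passed edgeR's filterByExpr. Benjamini-Hochberg adjustment ran over these, with a threshold of 0.01. Alternatives were edgeR 4.0.16 and DESeq2 1.42.0 on recovered reads, other scalings, filters, pseudocounts (0.1) and thresholds (0.05), the highest entry of a name, a replicate block, fits of 2 lines and leaving out libraries. Tests were tried on simulated data.

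Named miRNAs were the members, cell type markers, the 3 most similar to each 3p arm, and of each list of other miRNAs the 3 jointly called with the widest range of line means. Members and lists were chosen with earlier results of these data known. Groups came from the labels. Hairpins were placed with RefSeq and GENCODE 44, and all 7 members matched RefSeq by name. Libraries of a line differed by more than counting error, with a chi-square per degree of freedom between 9.34 and 16.6.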

Additional observations from a re-analysis of the deposited data

How the results depend on the processing

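Direction and call of miR-29a-3p held in all 6 pairs under every alternative run. Over the tested members, 502 alternative values kept direction and side of the threshold, 47 lost the call, 13 gained it and 8 reversed. In the joint test 3 lost the call, each of miR-29c-3p. The reversals were all of miR-29c-3p in pairs without a call: 0.11 (RLE), 0.076 (DESeq2), 0.084 (without ES-2 replicate 2) and 0.027 (without A-549 replicate 1) for A-549 against ES-2, 0.28 (library size only) and 0.11 (without MV-3 replicate 1) for MV-3 against ES-2, and -0.79 (library size only) and -0.13 (without MV-3 replicate 1) for A-549 against MV-3. Over single libraries these ran from -0.124 to 0.084, -0.41 to 0.11 and -0.13 to 0.40.

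Members called became 1, 4 and 1 with library size only for MV-3 against ES-2, A-549 against MV-3 and A-549 against Huh-7, and 1 without a filter for MV-3 against ES-2. A-549 against MV-3 gave 2 with edgeR, DESeq2 or 2 lines only and 3 at an adjusted p below 0.05. Fits of 2 lines gave 2 members for A-549 against Huh-7, and 73 and 145 of all miRNAs for MV-3 and A-549 against ES-2. Leaving out single libraries gave 1 to 3 members when MV-3 was set against ES-2, 2 to 3 with A-549 and ES-2, 1 to 2 with A-549 and MV-3, 2 to 5 with A-549 and Huh-7, 4 to 5 with Huh-7 and ES-2 or MV-3, and 4 to 5 in the joint test. The fall to 2 with A-549 and ES-2 came without either replicate of ES-2 or of A-549, that to 2 and 3 with A-549 and Huh-7 without A-549 replicate 2 and Huh-7 replicate 2, and that to 1 for MV-3 against ES-2 without any 1 library of ES-2, MV-3 or A-549. In such fits a line has 1 library, assumed to vary like the other lines.

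The replicate numbers share only a number: deviations of same-numbered libraries correlated between -0.05 and 0.23. With a replicate block, 2 members were called for A-549 against MV-3, and the ratio of miR-29a-3p to miR-29c-3p, with its log2 range of 2.73, had an adjusted p of 0.167. Without A-549 replicate 1 or 2 the log2 ratio range of miR-29b-1-5p to miR-29b-2-5p was -1.43 or 3.17, the extremes over single libraries. That of miR-29c-3p to miR-29c-5p ran from -0.75 (without Huh-7 replicate 1) to 2.64.

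With TMM scaling, log2 ratios of the family sum were -4.75 (Huh-7 and ES-2), -1.19 (MV-3 and ES-2), -2.13 (A-549 and ES-2), -3.55 (Huh-7 and MV-3), -0.94 (A-549 and MV-3) and 2.61 (A-549 and Huh-7), first line over second, and those of chromosome 1 names were, in the same order, -2.21, -0.23, 0.012, -1.98, 0.24 and 2.22, of which the -0.23, 0.012 and 0.24 reversed. Apart from scaling and smaller fits, the cause was not tested. Depth limits the 5p arms of chromosome 1, and miR-29a-5p in Huh-7, with 4 and 2 reads.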

Other observations

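Lists of other miRNAs were examined in the same tests for context. Of 15 miRNAs described in the field as repressed by MYC together with miR-29, 14 were tested and 11 were called in the joint test (68.2% of all miRNAs tested were). Between Huh-7 and ES-2, 5 of them were higher in Huh-7 and 2 lower, where 27.7% of all miRNAs tested were higher and 21.6% lower. Their median log2 fold change was 0.16, against 0.34 over all miRNAs and -4.74 over the 5 tested miR-29 members. In A-549 against ES-2, 2 were higher and 5 lower (23.7% and 17.6% of all miRNAs), with medians of -0.33 and 0.003. In MV-3 against ES-2, 3 were higher and 4 lower (11.6% and 14.2%), with medians of -0.13 and 0. A cause shared with miR-29 was not tested. The widest range of line means in this list was that of miR-34a-5p, a p53-induced miRNA with 0 normalized CPM in MV-3 and 444 ± 12.1 (SD, n = 2) in A-549 (joint adjusted p = 3.64e-05, limma). It was followed by miR-30a-5p, with 56080 ± 511 normalized CPM in ES-2 and 522 ± 40.7 in Huh-7, and by miR-146a-5p, with 4165 ± 223 in Huh-7 and 181 ± 8.38 in A-549.

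Of 13 miRNAs other than miR-29 that have been studied in tissue fibrosis, 12 were tested and 12 called jointly, beside 68.2% of all miRNAs, with 4 rising and 5 falling from ES-2 to Huh-7, beside 27.7% and 21.6%. The widest ranges were those of miR-122-5p, miR-155-5p, at 9249 ± 326 normalized CPM in ES-2 and 0.171 ± 0.242 in Huh-7, and again miR-34a-5p, which is in both lists. Of 20 mature names from other hairpins within 5 Mb of either miR-29 cluster, 7 were tested and 5 called jointly, a share near the 68.2% of all miRNAs. In Huh-7 against ES-2, 3 of these neighbors were higher and 2 lower, beside 27.7% and 21.6% of all miRNAs. The widest ranges there were those of miR-335-3p and miR-335-5p, which at 423 ± 0.362 and 211 ± 7.69 normalized CPM in Huh-7 stood above their levels in ES-2 (45.8 ± 3.003 and 3.02 ± 0.639), and miR-135b-5p, at 131 ± 28.9 in ES-2 and 1.65 ± 1.53 in Huh-7 (SD, n = 2).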
